A study of Homo sapiens with 9 samples.

Results

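The genes described here encode the histone deacetylases, the sirtuins and the subunits of the SIN3, NuRD, CoREST and NCOR corepressor complexes. They were chosen by name: every probe set annotated to exactly 1 of 40 listed genes was taken, which gave 105 probe sets of 38 genes, out of 54613 probe sets and 19775 genes in all. ARID4A of the SIN3 complex and NCOR1 were not analysed here. Of the 105 probe sets, 82 passed a filter on low signal, and each of the 38 genes had at least 1 that passed. The rule itself uses gene names and no measured value.

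The RNA came from sublines of HSF-6, a line of human embryonic stem cells, and was measured on 9 Affymetrix arrays in 3 groups of 3. The groups were HSF-6(S9) cells given butyrate and DZNep, HSF-6(8) cells given butyrate and DZNep, and control HSF-6(8) cells without these agents. Per the labels, all 9 arrays shared 11 passages and 6 days of growth, with or without the agents. The labels give neither doses nor how the sublines were derived, and untreated HSF-6(S9) cells were not analysed here.

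Histone deacetylases take acetyl groups off lysines of histones and other proteins, which generally goes with more compact and less active chromatin. Classes I, IIa, IIb and IV use a zinc ion. Butyrate, a short-chain fatty acid, inhibits some but not all enzymes of this zinc-dependent kind. Sirtuins form class III, use NAD and are not inhibited by butyrate. HDAC1 and HDAC2 work inside the SIN3, NuRD and CoREST complexes, and HDAC3 inside the NCOR complex, where partner subunits bring them to chromatin. DZNep, 3-deazaneplanocin A, blocks the hydrolase AHCY and so hampers histone methylation. In embryonic stem cells NuRD and CoREST are known for shaping the silencing of pluripotency and lineage genes. The arrays measure RNA of these genes, not the amount or activity of the enzymes.

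Of the 10 pluripotent cell markers listed, 8 had a probe set with a single gene, and all 8 lay above the array median on all 9 arrays. SOX2, a core pluripotency factor, ranged from 15792 to 37824 over the arrays, and its groups overlapped. NANOG, another core factor, gave 6145, 6503 and 4306 in treated HSF-6(S9) cells and 5605, 4915 and 8911 in treated HSF-6(8) cells, against 8647, 9070.4 and 8598 in control cells. All HSF-6(S9) arrays and 2 of the 3 treated HSF-6(8) arrays were thus below the controls for NANOG. SALL4 gave 2791, 3108 and 6661 in treated HSF-6(S9) cells and 3138, 3752 and 5929 in treated HSF-6(8) cells. In control cells it gave 1899, 2439 and 5642, lower than treated arrays of the same number. LIN28A, DPPA4, DNMT3B and ZFP42 overlapped between treated and control arrays. The 8 markers summed to 105110 to 169702 in treated HSF-6(S9) cells and 109320 to 120266 in treated HSF-6(8) cells. Control cells had 109619 to 146119, so the groups overlapped. Summed endoderm markers reached 12599 on the third array of treated HSF-6(8) cells, against 1711 and 2333 on the other 2 arrays of that group, 1839 to 2427 in treated HSF-6(S9) cells and 833 to 1393 in control cells. Summed fibroblast markers were 12238 to 13196 in treated HSF-6(S9) cells and 12370.2, 12604 and 20500 in treated HSF-6(8) cells, against 9574 to 10242 in control cells, with no overlap between treated and control arrays. COL1A1 alone gave 9690, 6692 and 4655 in treated HSF-6(S9) cells and 8829, 8707 and 10614 in treated HSF-6(8) cells. Its control arrays gave 4461, 4899 and 3789, so the third HSF-6(S9) array lay in the control range. COL3A1 and LUM overlapped between treated and control arrays. Neuroectoderm markers summed to 694 to 3766 in treated HSF-6(S9) cells and 1069 to 1375 in treated HSF-6(8) cells, against 389.5 to 449 in controls, while trophoblast markers summed to 1638 to 2557 in treated HSF-6(S9) cells and 1588 to 2356 in treated HSF-6(8) cells, against 645 to 1023 in controls. The part of these other cell states in the values below was not tested, and in bulk RNA fewer cells of a type and less RNA per cell cannot be told apart. Whether a group's 3 arrays stand for 3 cultures is not in the labels, so the p-values rest on a spread between samples that may be technical only.

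Of the 38 genes, 0 passed the test in any of the 3 comparisons (limma, adjusted p under 0.05 over 13519 genes). In treated against control HSF-6(8) cells, 0.858% of all tested genes passed it, and the smallest adjusted p of a member was 0.550. At an unadjusted p under 0.05 the members' count was also 0, where 9.85% of all genes lay under it. Of the members, 24 had a positive and 14 a negative log2 fold change, from -0.45 to 0.41, with a median of 0.08 beside 0.00 over all genes. Requiring a 2-fold change as well leaves 0.843% of all genes. At the level of probe sets, 0 of 82 passed, beside 0.3% of all 29328 probe sets, and 0 had an unadjusted p under 0.05, beside 7.52%.

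The width of the intervals says how large a change these arrays leave possible. Each gene was tested on its brightest probe set that passed the filter. There the 95% interval of treated minus control HSF-6(8) lay inside 2-fold in either direction for 36 of the 38 members. The same held for 73.5% of all tested genes. The 2 exceptions among the members were HDAC5, with an interval of 0.77 to 2.29 times the control level, and HDAC9, with 0.49 to 1.09 times. The median standard error was 0.21 for members and 0.24 for all genes on the log2 scale. A member's interval had a median half-width of 1.38-fold, without adjustment for the number of genes. The adjusted test asks for more, and a change of that size need not pass it. Other kept probe sets of a gene are not in these counts. Some, such as 242141_at of HDAC2, had a larger standard error than the tested one. The intervals rest on the same spread between arrays as the p-values, which may be technical only.

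**Figure D1:**
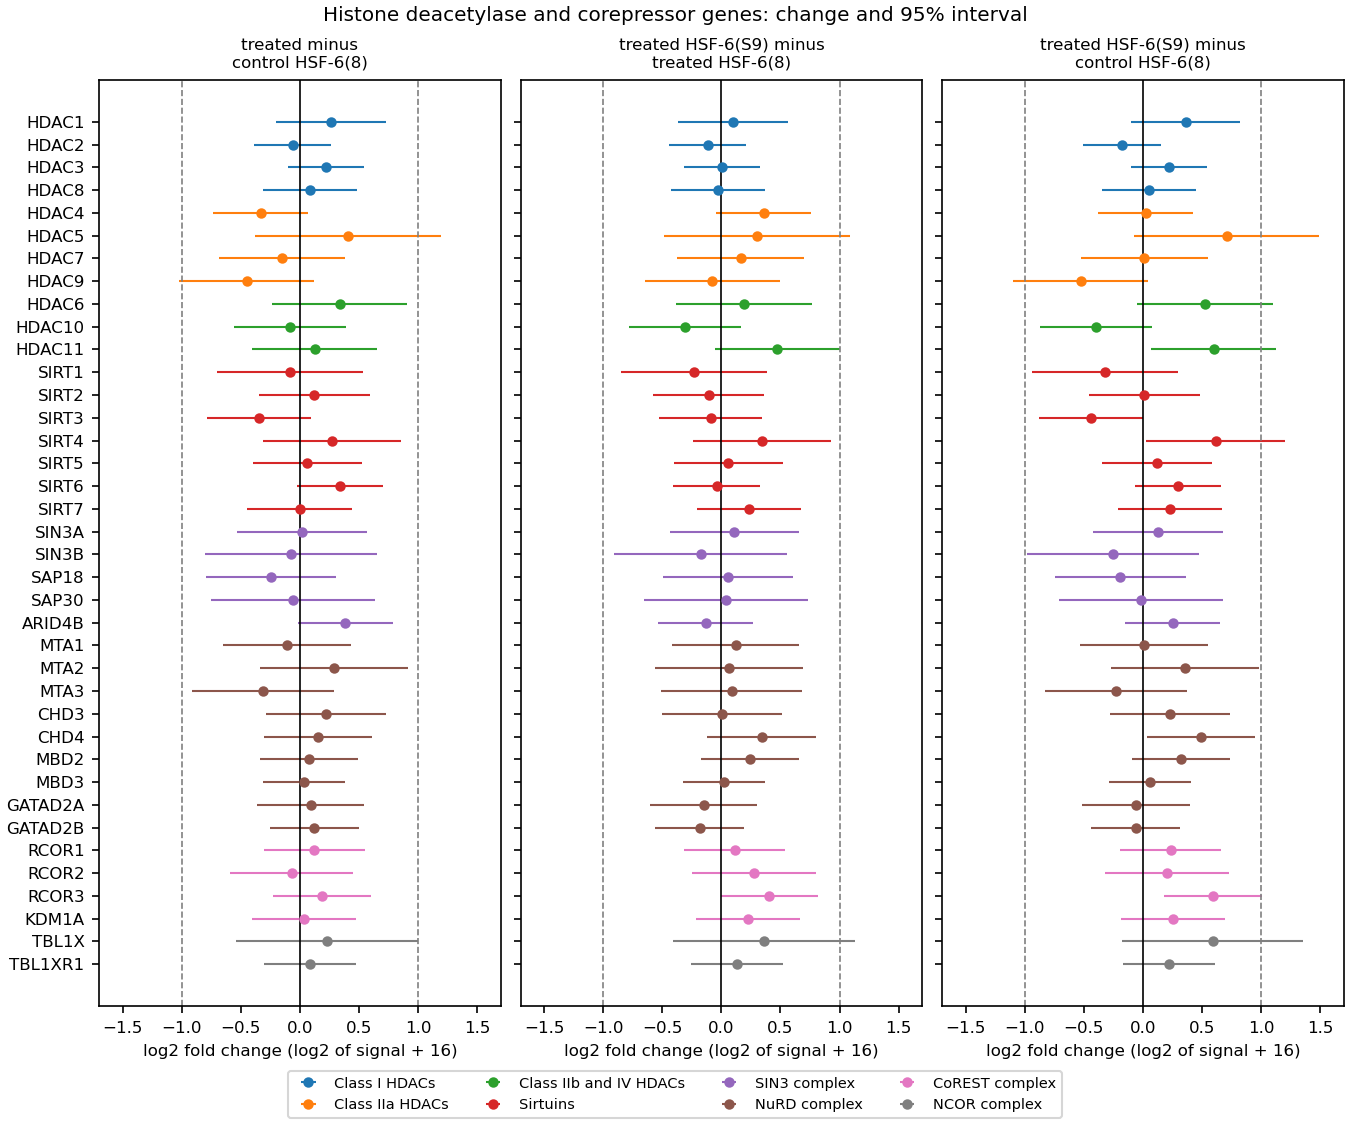
Log2 fold change of the 38 genes (x axis, log2 of signal plus 16) with its 95% interval, by gene (y axis) and class (colour), in the 3 comparisons; dashed lines mark 2-fold. In treated minus control HSF-6(8) cells every point lies between -0.45 and 0.41, and only the intervals of HDAC5 and HDAC9 reach past a dashed line.

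Class I holds the main catalytic subunits of these complexes. HDAC1, the best known of them, had signals of 9780.3, 14011 and 9599 in treated HSF-6(S9) cells and 10111, 11397 and 9327 in treated HSF-6(8) cells, against 9679, 9021 and 7101 in control cells. The groups overlapped, and the second HSF-6(S9) array was the highest. Treated HSF-6(8) cells averaged 10279 ± 1045 and control cells 8600.2 ± 1339 (SD, n = 3 arrays each), a log2 fold change of 0.26 ± 0.21 (SE; limma adjusted p = 0.827). It was 0.13 without the third control array and 0.36 without the first.

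HDAC3, the catalytic subunit of the NCOR complex, gave 1749, 1547 and 1793 in treated HSF-6(S9) cells and 1666, 1718 and 1692 in treated HSF-6(8) cells, against 1434, 1475 and 1436 in control cells. All treated arrays lay above all control arrays, by a log2 fold change of 0.22 ± 0.14 in HSF-6(8) cells (adjusted p = 0.749). HDAC2, the close relative of HDAC1, gave 9926, 8311 and 9064 in treated HSF-6(S9) cells and 9933, 9613 and 9966 in treated HSF-6(8) cells, against 10589, 10085 and 10134 in control cells. Its treated arrays all lay below the control arrays, and the difference in HSF-6(8) cells was small (-0.06 ± 0.15, adjusted p = 0.979). The second probe set of HDAC2, 242141_at, ran the other way, with 0.56 ± 0.41. HDAC8, a class I enzyme that works outside these complexes, had 0.08 ± 0.18 and 3 probe sets that were all positive.

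Over the members, the 3 treated HSF-6(8) arrays lay above all 3 control arrays for 3 genes and below them for 2, or 5 of 38. Of all tested genes 10.3% were higher and 7.06% lower in this way. Besides HDAC3 and HDAC2 the genes were ARID4B and SIRT6 on the higher side and SIRT3 on the lower. The members' share without overlap was thus near the background.

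In mouse cells the promoter of the HDAC1 gene is known to answer to deacetylase inhibitors through GC boxes, bound by Sp1, and a CCAAT box. The 250 bases before the RefSeq start of 3 members are shown (GRCh38.p14) to set these letters beside the values. They are HDAC1 itself, HDAC9 and RCOR3. On the tested probe sets, HDAC9 had the most negative change in treated against control HSF-6(8) cells, and RCOR3 the smallest p in any comparison. HDAC1 lies at chr1:32291833-32292082, HDAC9 at chr7:18495499-18495748 and RCOR3 at chr1:211259116-211259365, all on the plus strand. Capitals mark each GC box, GGGCGG, and each CCAAT box, CCAAT, on either strand, and neighbouring matches can overlap.
HDAC1: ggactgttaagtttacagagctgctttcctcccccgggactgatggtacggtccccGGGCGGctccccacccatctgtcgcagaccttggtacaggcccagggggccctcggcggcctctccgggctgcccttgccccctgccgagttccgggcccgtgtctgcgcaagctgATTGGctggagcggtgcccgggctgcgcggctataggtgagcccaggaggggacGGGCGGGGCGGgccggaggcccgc
HDAC9: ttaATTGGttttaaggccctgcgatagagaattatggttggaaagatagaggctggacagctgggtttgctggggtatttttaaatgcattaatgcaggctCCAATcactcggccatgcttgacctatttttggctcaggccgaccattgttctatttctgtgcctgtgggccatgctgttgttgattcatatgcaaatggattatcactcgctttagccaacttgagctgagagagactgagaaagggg
RCOR3: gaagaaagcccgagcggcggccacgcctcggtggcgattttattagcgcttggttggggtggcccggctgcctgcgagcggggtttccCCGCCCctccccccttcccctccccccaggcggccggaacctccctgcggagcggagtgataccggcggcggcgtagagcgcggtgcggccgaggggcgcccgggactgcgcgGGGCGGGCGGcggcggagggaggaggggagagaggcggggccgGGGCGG
HDAC1 held 3 GC boxes and 1 CCAAT box, HDAC9 held 0 and 2, and RCOR3 held 4 and 0. GC content was 71.6% for HDAC1, 45.2% for HDAC9 and 77.2% for RCOR3. A promoter was matched for 36 of the 40 listed genes, ARID4A and NCOR1 among them. Of the 36, 23 held a GC box (63.9%), beside 42.3% of 27305 promoters of the same length. A CCAAT box was held by 13 (36.1%), beside 33.0%. The 27305 were not matched to the members for GC content or for signal on these arrays, and the part of base composition was not tested. A match is a description of letters at 1 annotated start per gene, not a site or a cause, and use of these starts was not measured.

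The class IIa enzymes shuttle between nucleus and cytoplasm and act mainly by recruiting the NCOR complex. HDAC9 gave 277, 182 and 216 in treated HSF-6(S9) cells and 279, 212 and 219 in treated HSF-6(8) cells, against 250.1, 294 and 471 in control cells. The third control array was far above the rest, and the groups overlapped. Its log2 fold change in HSF-6(8) cells was -0.45 ± 0.25 (adjusted p = 0.685), between -0.63 and -0.20 when 1 array at a time was left out, and -0.15 on the first and second arrays alone. HDAC4 averaged 529.6 ± 63.4 in treated and 676 ± 126 in control HSF-6(8) cells (-0.33 ± 0.18, adjusted p = 0.655), and HDAC7 383 ± 41.3 in treated and 435 ± 113 in control cells (-0.15 ± 0.24). HDAC5 averaged 1211 ± 136 in treated and 943 ± 312 in control HSF-6(8) cells (0.41 ± 0.35), and its second kept probe set, 229408_at, had -0.30 ± 0.35. The median of the 4 genes was -0.24, with 1 positive and 3 negative values, none of which passed the test. That median was -0.16 without the first control array, where HDAC7 turned to 0.04, and -0.36 without the second.

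HDAC6, a class IIb enzyme that deacetylates tubulin in the cytoplasm, gave 1888, 1803 and 1579 in treated HSF-6(S9) cells and 1929, 1750 and 1068 in treated HSF-6(8) cells, against 1555, 1172 and 977 in control cells. In each group the third array was the lowest, and treated HSF-6(8) and control cells overlapped (0.34 ± 0.26, adjusted p = 0.814). That value was 0.17 without the first treated HSF-6(8) array and 0.59 without the third. HDAC10, which deacetylates polyamines, had -0.09 ± 0.21. HDAC11, the class IV enzyme, had 0.12 ± 0.24 on probe set 227679_at and -0.25 ± 0.25 on 219847_at.

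Of the 7 sirtuins, SIRT3, the main mitochondrial deacetylase, gave 600.1, 564 and 382 in treated HSF-6(S9) cells and 569, 546 and 508 in treated HSF-6(8) cells, against 748, 705 and 628 in control cells. All treated arrays lay below all control arrays on this probe set, 49327_at. The log2 fold change in HSF-6(8) cells was -0.35 ± 0.20 (adjusted p = 0.68), and the other 2 kept probe sets of SIRT3 had -0.11 ± 0.34 and -0.48 ± 0.24. SIRT6, a nuclear sirtuin tied to DNA repair, gave 425, 384 and 460.1 in treated HSF-6(S9) cells and 430, 389.5 and 489.6 in treated HSF-6(8) cells, against 312, 370.4 and 343 in control cells. Its treated arrays lay above the controls (0.34 ± 0.16 in HSF-6(8) cells, adjusted p = 0.573), but its second kept probe set, 219613_s_at, had -0.17 ± 0.18. SIRT1, the nuclear sirtuin closest to the yeast silencing factor Sir2, had -0.09 ± 0.28. SIRT2 had 0.12 ± 0.21, SIRT4 0.27 ± 0.26, SIRT5 0.06 ± 0.21 and SIRT7 -0.00 ± 0.20.

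In the SIN3 complex, ARID4B, a DNA-binding subunit, gave 2783, 2039 and 2359 in treated HSF-6(S9) cells and 2993, 2457 and 2397 in treated HSF-6(8) cells, against 1801, 2101 and 2089 in control cells. Treated HSF-6(8) arrays all lay above the controls, while the HSF-6(S9) arrays overlapped with them. Its log2 fold change in HSF-6(8) cells, 0.38 ± 0.18, had the smallest p of the members in this comparison (unadjusted p = 0.0597, adjusted p = 0.55). The scaffold genes SIN3A and SIN3B had 0.02 ± 0.24 and -0.07 ± 0.33, and the SIN3-bound subunits SAP18 and SAP30 had -0.25 ± 0.25 and -0.06 ± 0.31.

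The NuRD complex couples HDAC1 and HDAC2 to a chromatin remodelling ATPase, CHD3 or CHD4. Of its 9 listed genes 7 had a positive and 2 a negative value, with a median of 0.09. Without the third control array the median was -0.03. MTA3, 1 of 3 related scaffold subunits, gave 4605, 4685 and 3166 in treated HSF-6(S9) cells and 4510.4, 4567 and 2762 in treated HSF-6(8) cells, against 5822, 5013 and 3750.3 in control cells. The third array was again the lowest of each group, and the groups overlapped (-0.31 ± 0.27 in HSF-6(8) cells, adjusted p = 0.853). The value was -0.49 without the third control array, while leaving out the third treated array gave -0.076. MTA1 and MTA2 had -0.11 ± 0.24 and 0.29 ± 0.28, and the ATPases CHD3 and CHD4 had 0.22 ± 0.23 and 0.15 ± 0.21. The methyl-CpG-binding subunit MBD2 had 0.08 ± 0.18 and its relative MBD3 had 0.04 ± 0.15. MBD3 averaged 2099 ± 44.5 in treated and 2058 ± 245 in control HSF-6(8) cells, and its interval covered 0.81 to 1.30 times the control level. The zinc finger subunits GATAD2A and GATAD2B had 0.09 ± 0.20 and 0.12 ± 0.17.

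In the CoREST complex, KDM1A, the demethylase of histone H3 lysine 4, gave 5417, 7686 and 5446 in treated HSF-6(S9) cells and 5393, 5529 and 4779 in treated HSF-6(8) cells, against 5679.5, 5464 and 4290.4 in control cells. The treated HSF-6(8) and control arrays lay in the same range (0.03 ± 0.20, adjusted p = 0.992). The scaffold genes RCOR1, RCOR2 and RCOR3 had 0.12 ± 0.19, -0.07 ± 0.23 and 0.19 ± 0.18. In the NCOR complex the WD-repeat genes TBL1X and TBL1XR1, whose proteins hold HDAC3 and NCOR together, had 0.23 ± 0.34 and 0.09 ± 0.17. Without the first treated HSF-6(8) array RCOR3 had 0.075 and TBL1X 0.061, and without the third 0.36 and 0.46.

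**Figure D2:**
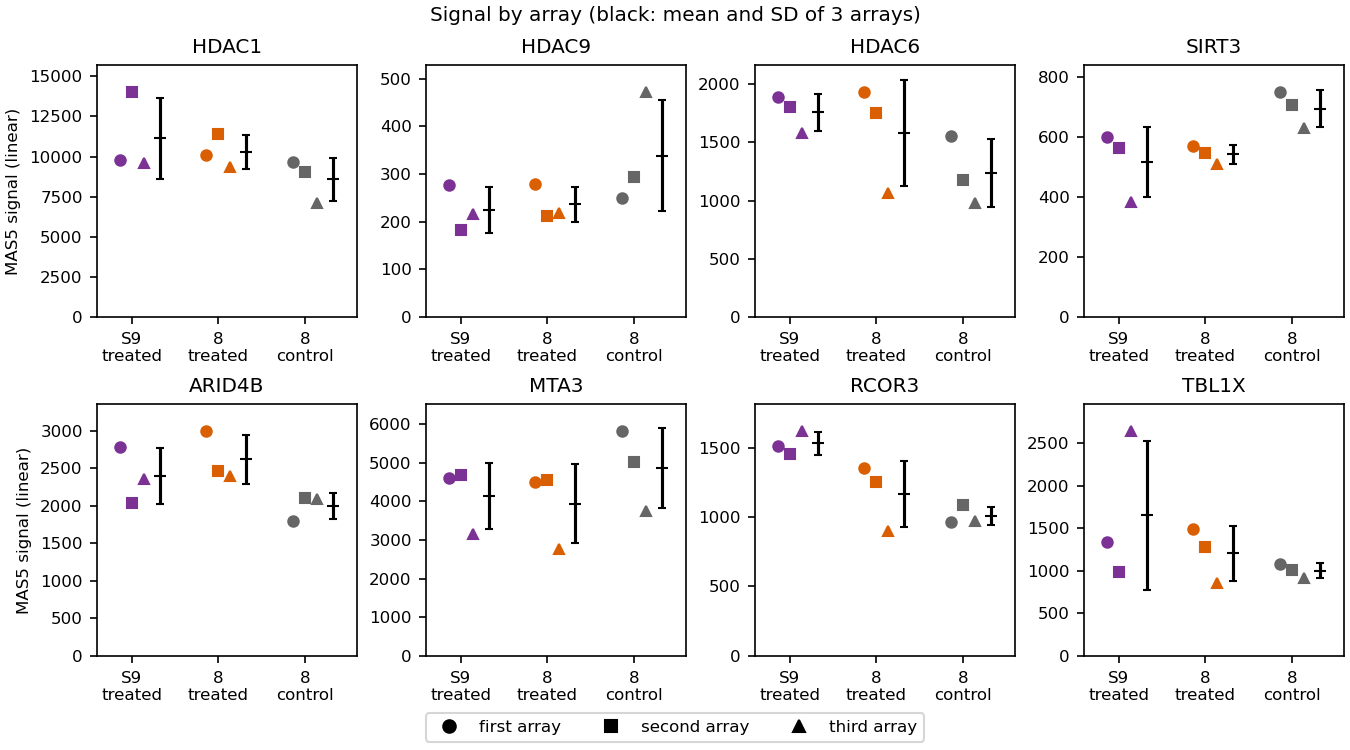
MAS5 signal (y axis, linear, from 0) on each array for the member of each class with the largest absolute change in treated against control HSF-6(8) cells; colours and columns are the 3 groups, marker shapes the replicate arrays, and black bars the mean and SD of 3 arrays. RCOR3 sits at 1455 to 1618 in treated HSF-6(S9) cells and at 966 to 1084 in control cells, and most other groups overlap.

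When both sublines were treated, HSF-6(S9) was set against HSF-6(8), using the same treated HSF-6(8) arrays as above. There 0 of 38 members passed, beside 0.0074% of all genes (limma), and 0 had an unadjusted p under 0.05, beside 2.57%. The 2 treated groups differed by log2 values from -0.31 for HDAC10 to 0.47 for HDAC11, with a median of 0.07 over members beside -0.01 over all genes. For 35 of 38 members the interval lay inside 2-fold, as for 77.7% of all genes. On the tested probe sets, HDAC11, HDAC4, CHD4 and RCOR3 were higher on all 3 HSF-6(S9) arrays than on any treated HSF-6(8) array. There 0 members were lower on all. Of all genes 2.74% were higher and 3.65% lower in this way. HDAC4 averaged 681 ± 25.3 in treated HSF-6(S9) and 529.6 ± 63.4 in treated HSF-6(8) cells (0.36 ± 0.18). Each of the 4 genes had an adjusted p of 0.989. Another kept probe set ran the other way for HDAC11 (-0.27), CHD4 (-0.30) and RCOR3 (-0.13). Those of HDAC4 were all positive, from 0.18 to 0.36. At the level of probe sets 0 of 82 passed, beside 0% of all probe sets, and 1 had an unadjusted p under 0.05, beside 2.43%.

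The comparison of treated HSF-6(S9) with control HSF-6(8) cells differs in subline and treatment at once, whose parts cannot be told apart, and it shares the control arrays with the first comparison. Here too 0 members passed, beside 1.23% of all genes (limma), and the smallest adjusted p of a member was 0.172. At an unadjusted p under 0.05 there were 5 members, beside 14.1% of all genes: RCOR3, HDAC11, CHD4, SIRT4 and SIRT3. The median over members was 0.17, beside 0.00 over all genes, with 27 positive and 11 negative values. For 31 of 38 members the interval lay inside 2-fold, as for 68.8% of all genes. By class the median log2 fold change was 0.53 over the 3 class IIb and IV enzymes. Over the 2 NCOR genes it was 0.41 (0.23 without the third HSF-6(S9) array). It was 0.25 over the 4 CoREST genes, 0.14 in class I, 0.12 over the 7 sirtuins and 0.06 in NuRD. Class IIa had 0.02 and SIN3 -0.02. Single arrays moved these medians. Without the third control array the sirtuins had -0.06 and NuRD -0.02, and the other classes kept their sign. Without the second control array class IIa had -0.10 and class IIb and IV 0.36, and no other class changed sign. At the level of probe sets 0 of 82 passed, beside 0.389%, and 6 had an unadjusted p under 0.05, beside 11.3%. Requiring a 2-fold change as well leaves 1.18% of all genes.

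RCOR3, a scaffold of CoREST, gave 1513, 1455 and 1618 in treated HSF-6(S9) cells and 1349, 1249.8 and 898 in treated HSF-6(8) cells, against 966, 1084 and 969 in control cells. The HSF-6(S9) arrays lay above all others, and the treated HSF-6(8) arrays spread over the control range and above it. Its log2 fold change in treated HSF-6(S9) against control HSF-6(8) cells was 0.60 ± 0.18 (adjusted p = 0.172), with an interval of 1.13 to 2.01 times the control level. The other 2 kept probe sets of RCOR3 had 0.24 ± 0.20 and 0.22 ± 0.36 in that comparison.

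HDAC11 averaged 266 ± 25.6 in treated HSF-6(S9) and 175 ± 50.5 in control HSF-6(8) cells (0.60 ± 0.24, adjusted p = 0.288), but its other kept probe set had -0.52 ± 0.25, so the direction depends on the probe set. CHD4 averaged 4445 ± 1077 in treated HSF-6(S9) and 3114 ± 382 in control cells (0.49 ± 0.21, adjusted p = 0.319), with 5689 on the second HSF-6(S9) array. SIRT4, another mitochondrial sirtuin, averaged 205 ± 61.5 in treated HSF-6(S9) and 128 ± 37.8 in control cells (0.62 ± 0.26, adjusted p = 0.329). SIRT3 averaged 515 ± 117 in treated HSF-6(S9) and 693 ± 60.8 in control cells (-0.44 ± 0.20, adjusted p = 0.353), while its probe set 221562_s_at had 0.24 ± 0.34. On the tested probe set SIRT3 ran between -0.56 without the first HSF-6(S9) array and -0.24 without the third.

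HDAC5 gave 1200.3, 2555 and 1076 in treated HSF-6(S9) cells and 1239.7, 1329.7 and 1063 in treated HSF-6(8) cells, against 1224, 998 and 606 in control cells. The second HSF-6(S9) array was the highest and the third control array the lowest, with the other 7 between 998 and 1330. Treated HSF-6(S9) minus control cells came to 0.71 ± 0.35 (adjusted p = 0.405). Among the members' tested probe sets, 1 per gene, this was the highest value in any comparison. The other kept probe set of HDAC5, 229408_at, had -0.26 ± 0.35.

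TBL1X gave 1336, 985 and 2644 in treated HSF-6(S9) cells and 1493, 1277 and 856 in treated HSF-6(8) cells, against 1085, 1009.6 and 918 in control cells. A single HSF-6(S9) array, replicate 3, was the highest. The difference of that group from control cells was 0.59 ± 0.34 with all arrays and 0.19 without that array. The 5 kept probe sets of TBL1X were all positive here, from 0.46 to 0.73, and none passed the test. One of them, 201869_s_at, averaged 376 ± 35.4 in treated HSF-6(S9) and 269 ± 40.3 in control cells. In this comparison 7 members were higher on all 3 HSF-6(S9) arrays than on any control array and 2 were lower, beside 11.3% and 8.88% of all genes.

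Probe sets of the same gene often differed in sign. In treated against control HSF-6(8) cells, 25 members had several kept probe sets, which shared 1 sign in 12 genes and differed in 13. The median spread between a gene's probe sets was 0.36 on the log2 scale. The widest, 1.07, was that of GATAD2A, with -0.65 ± 0.52 on 238324_at and 0.43 ± 0.23 on 222526_at. The first of these was dim, at 30.9 ± 24.2 in treated and 59.2 ± 36.0 in control HSF-6(8) cells. Both means lay below the lowest array median, 64.8. GATAD2A, SAP30 and SIRT6 were each tested on a probe set with the suffix x_at, which Affymetrix uses for probes that can match other transcripts.

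Across groups, the third arrays stood apart for some of these probe sets. In all 3 groups, 4 of the 82 kept probe sets were at least 2-fold higher on the third array than on the mean of the first and second (4.88%, beside 2.7% of all kept probe sets), and 0 were at least 2-fold lower (beside 0.174%). The 4 belonged to CHD4, TBL1X, TBL1XR1 and ARID4B. CHD4 on 201182_s_at gave 299.8, 165 and 1591 in treated HSF-6(S9) cells and 352, 394 and 1120.3 in treated HSF-6(8) cells, against 199.5, 237 and 1382 in control cells. On 201184_s_at, the probe set tested for CHD4, the third array was the lowest of each group, at 3808, 3052 and 2685 in treated HSF-6(S9), treated HSF-6(8) and control cells.

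TBL1XR1 showed the same contrast between its probe sets. On 222633_at it gave 887, 987 and 2954 in treated HSF-6(S9) cells and 843, 991 and 3076 in treated HSF-6(8) cells, against 559, 795 and 2859 in control cells. On 223013_at, the probe set tested, the third array was the lowest in treated HSF-6(8) and in control cells. On 221428_s_at it was the lowest in every group, at 731, 1232 and 1596. ARID4B on 223111_x_at gave 1059, 827 and 833 on the third arrays of treated HSF-6(S9), treated HSF-6(8) and control cells, and 222 to 346 on the other arrays. The labels name no batch, and what set the third arrays apart was not tested. With the third arrays as a block, or left out, the count of members that passed stayed at 0 in all 3 comparisons.

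**Figure D3:**
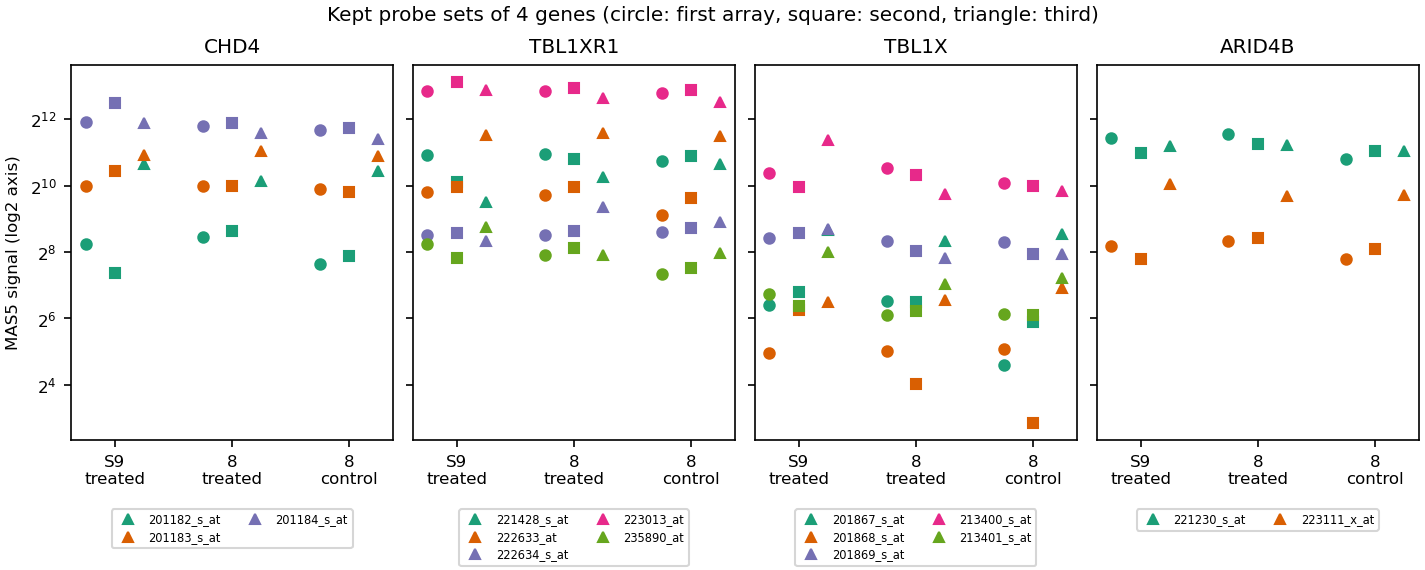
MAS5 signal (y axis, log2 scale) of each kept probe set (colour) of CHD4, TBL1XR1, TBL1X and ARID4B on the first (circle), the second (square) and the third (triangle) array of the 3 groups (x axis). For CHD4, 201182_s_at lies at 1120.3 to 1591 on the third arrays and at 165 to 394 on the others.

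Other genes of histone acetylation were tested as well. Of 13 histone acetyltransferases tested 0 passed in any comparison, nor did any of 25 further corepressor subunits, 5 acetyl-lysine readers or 7 genes of NAD supply, the cofactor of sirtuins (limma). In treated against control HSF-6(8) cells their medians were 0.03, -0.07, 0.08 and -0.20 in that order, and their counts at an unadjusted p under 0.05 were 0, 0, 0 and 1. In treated HSF-6(S9) against treated HSF-6(8) cells these counts were 0 in each list, and in treated HSF-6(S9) against control HSF-6(8) cells they were 2, 0, 0 and 3.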

How the data were processed

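RNA of 9 arrays in 3 groups of 3 was analysed. The authors deposited linear signal intensities, 1 per probe set and array, made with Affymetrix Expression Console and MAS5 per the submitters' processing notes. The sources used here give no software versions. Each array's mean without the top and bottom 2% was 499.9, and array medians were 64.8 to 82.9. The number of arrays limits the precision.

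For this report 16 was added before taking log2, so changes of dim genes are understated. Probe sets above their array's median on at least 3 arrays were kept (29328), and the brightest kept probe set stood for its gene (13519 genes). Probe sets were named from GEO's platform annotation, with symbols updated by Entrez number for 41037 of 41091 single-gene probe sets; 1801 with several genes were not named. All 9 arrays entered 1 model with limma 3.58.1 in R 4.3.3 (6 residual degrees of freedom). Two-sided p-values received Benjamini-Hochberg adjustment over all genes, or all probe sets. Intervals are unadjusted 95% intervals of the moderated model. The fit was tested on simulated data with independent noise on each array. The simulation had no shift shared by the third arrays, so it cannot show how the p-values and intervals hold here.

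Members and lists were chosen with earlier results of these data known. Values on every array were planned for called members, or else for the member of each class with the largest absolute change in treated against control HSF-6(8) cells (HDAC1, HDAC9, HDAC6, SIRT3, ARID4B, MTA3, RCOR3 and TBL1X). HDAC2, HDAC3, HDAC5, SIRT6, KDM1A, CHD4 and TBL1XR1 were added after their values were seen, as was the contrast of the third arrays. The titles' prime marks were checked as a pairing: deviations of same-mark arrays correlated at 0.12 to 0.59 over probe sets and at -0.03 to 0.49 over genes. Arrays with different marks were not set against each other, so these values cannot show whether the arrays were paired. Promoters are from RefSeq.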

Additional observations from a re-analysis of the deposited data

How the results depend on the processing

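The count of members that passed was 0 in all 3 comparisons under each of 20 other settings, at gene level and, where it could be computed, at probe set level. The settings were 1 or 64 added to each value, no filter or a 75th percentile filter, probe sets averaged per gene, quantile normalization, centring on the array median, a replicate block, the third arrays as a batch block, trend with robust eBayes, each array left out in turn and, chosen after seeing the data, the first and second arrays alone. With the replicate block the count was 0 as well and it changed no call. The smallest adjusted p of any member in any setting was 0.0829, for RCOR3 in treated HSF-6(S9) against control HSF-6(8) cells without the third treated HSF-6(8) array. Leaving out 1 array at a time, the members' median was -0.03 to 0.14 in treated against control HSF-6(8) cells, and it was negative only without the third control array, 0.01 to 0.14 between the treated sublines and 0.10 to 0.22 in treated HSF-6(S9) against control HSF-6(8) cells. Between the treated sublines the sign turned for HDAC1 with quantile normalization (-0.018), for SIRT3 with the mean of probe sets (0.18) and with the first and second arrays alone (0.13), and for TBL1X with these arrays alone (-0.26). Without single arrays it ran from -0.080 to 0.19 for HDAC1, -0.23 to 0.058 for HDAC9, -0.068 to 0.35 for HDAC6, -0.21 to 0.35 for SIRT3 (-0.21 to 0.10 on the tested probe set), -0.15 to 0.27 for MTA3 and -0.037 to 0.67 for TBL1X. MTA3 in treated HSF-6(S9) against control HSF-6(8) cells had 0.014 with the mean of probe sets. For SIRT3, 221562_s_at became the brightest probe set and stood for the gene without the third control array, which gave the 0.35 and, in treated HSF-6(S9) against control cells, -0.12, and on the first and second arrays alone. With 49327_at kept, a choice made after seeing the data, these became -0.09 and -0.51, and 0.061 between the treated sublines on the first and second arrays alone. The cause of the other turns was not tested. With the 75th percentile filter 30 members remained, without HDAC9. Over all genes the count that passed moved by more than the members' did: with the replicate block it was 167 in treated against control HSF-6(8) cells, against 116 without it, and 291 in treated HSF-6(S9) against control cells, against 166. Over the 20 settings these counts ran from 56 to 224 and from 55 to 412, and from 0 to 1 between the treated sublines. The members' counts at an unadjusted p under 0.05 ran from 0 to 3 in treated against control HSF-6(8) cells, 0 to 1 between the treated sublines and 0 to 9 in treated HSF-6(S9) against control cells.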
